A study of Mus musculus with 2 samples.

Results

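Late G2 and mitotic cells were taken from cultures of hematopoietic stem cells of the mouse (the labelled source is blood) that had been kept for 48 h either in RO-3066 or in dimethyl sulfoxide (DMSO), the vehicle. Each treatment was 1 library of droplet single-cell RNA sequencing, in which every captured transcript carries a unique molecular identifier (UMI), so no value below has a replicate check and no difference was tested. The labels state neither the target nor the dose of RO-3066, and nothing in the sources used here gives the strain, age or number of mice. Cells were kept with at least 5000 and under 50000 UMIs, at least 500 genes, at most 10% mitochondrial UMIs and Pf4 below 0.3% of UMIs. Members were those kept cells in which Plk1, Ccnb1 and Ube2c together reached 1000 CPM, the UMI count scaled to 1000000 UMIs per cell. There were 733 members among 4580 kept DMSO cells and 267 among 2495 kept RO-3066 cells, 1000 of 7075 in all, out of 10042 barcodes. The other 3847 DMSO and 2228 RO-3066 cells are the comparison.

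A cell leaves G2 when cyclin B bound to Cdk1 becomes active, with Plk1 and Aurora kinase A driving the switch. The anaphase-promoting complex then destroys cyclin B, using the ubiquitin-conjugating enzymes Ube2c and Ube2s and the activator Cdc20, and the cell divides. Transcripts of these genes build up through G2, are highest in late G2 and mitosis and are cleared in G1. Transcripts of replication genes and of the core histones are high in S phase. Hematopoietic stem cells rarely divide in the marrow but enter the cell cycle in culture. The rule does not tell late G2 from mitosis, since the 3 genes are high in both.

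Many genes of this phase share the promoter sequence TTTGAA, known as the cell cycle genes homology region, which often lies near boxes of the sequence CCAAT. The stretches below run from 120 bases before to 30 bases after the start site, 5′ to 3′ on the gene's strand, and come from RefSeq (GRCm38.p6). They are shown for the rule genes Ube2c and Ccnb1, for other genes high in members and, in contrast, for 2 replication genes low in them. Capitals mark these motifs on either strand. They also mark the motif TTCCCGC, which resembles a site of E2F factors and was added after the low genes were seen.
Ube2c: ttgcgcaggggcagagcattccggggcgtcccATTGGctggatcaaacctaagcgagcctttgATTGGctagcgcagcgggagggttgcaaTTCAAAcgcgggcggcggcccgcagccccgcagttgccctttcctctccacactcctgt
Ccnb1: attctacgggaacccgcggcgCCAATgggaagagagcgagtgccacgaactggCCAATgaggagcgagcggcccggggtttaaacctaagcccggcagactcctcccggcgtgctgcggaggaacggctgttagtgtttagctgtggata
Hmmr: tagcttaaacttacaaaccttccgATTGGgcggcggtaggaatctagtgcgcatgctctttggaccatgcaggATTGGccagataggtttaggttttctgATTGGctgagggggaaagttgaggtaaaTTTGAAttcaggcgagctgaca
Cenpf: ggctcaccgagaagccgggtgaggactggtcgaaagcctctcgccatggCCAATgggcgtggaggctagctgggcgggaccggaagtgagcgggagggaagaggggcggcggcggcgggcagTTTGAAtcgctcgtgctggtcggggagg
Cdc20: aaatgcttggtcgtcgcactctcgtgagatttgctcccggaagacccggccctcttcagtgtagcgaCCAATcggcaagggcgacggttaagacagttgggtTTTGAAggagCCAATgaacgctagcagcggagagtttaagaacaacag
Cdk1: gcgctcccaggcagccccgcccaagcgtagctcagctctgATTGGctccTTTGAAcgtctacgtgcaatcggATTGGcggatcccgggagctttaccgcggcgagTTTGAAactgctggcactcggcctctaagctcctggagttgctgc
Pcna: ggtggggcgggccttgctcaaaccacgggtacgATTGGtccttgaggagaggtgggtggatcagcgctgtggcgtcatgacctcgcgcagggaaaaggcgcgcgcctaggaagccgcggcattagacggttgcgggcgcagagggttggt
Uhrf1: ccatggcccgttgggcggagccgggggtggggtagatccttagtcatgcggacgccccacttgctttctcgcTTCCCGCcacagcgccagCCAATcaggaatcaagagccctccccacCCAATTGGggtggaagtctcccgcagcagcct

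The Ube2c stretch is on chromosome 2, plus strand, from 164769809 to 164769958, and has TTTGAA on its reverse strand at -29 from the start site. Cdk1 (chromosome 10, minus strand, 69352883 to 69353032) has the sequence at -71 and -15. Cdc20 (chromosome 4, minus strand, 118437314 to 118437463) has it at -18, between CCAAT boxes at -53 and -8. In Hmmr (chromosome 11, minus strand, 40733408 to 40733557) and Cenpf (chromosome 1, minus strand, 189688057 to 189688206) it lies just after the start, at 9 and 3. Ccnb1 (chromosome 13, minus strand, 100786457 to 100786606) has CCAAT boxes only. Of genes looked at and not shown, the rule gene Plk1 and Aurka have TTTGAA at 31 and 33, past the end of such a stretch. Aspm and Cenpa have it within, at 7 and 17. Pcna (chromosome 2, minus strand, 132253151 to 132253300) and the first of the Uhrf1 promoters (chromosome 17, plus strand, 56303217 to 56303366) have no TTTGAA here.

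The promoters of genes high in members were rich in TTTGAA. Over windows of 300 bases, from 250 before to 50 after the start, it was found in 57.4% of 115 promoters of the genes at least 1.5-fold higher in DMSO members. These genes were 121 of 5613 compared (2.16%), and 103 of them were matched. It was found in 57.5% of 127 promoters for the same direction in RO-3066 (116 of 135 genes matched). Of these 135 genes, 90 were also in the DMSO set and 25 were replication-dependent histone genes. The motif was not particular to mitotic genes, as 45.2% of 62 promoters of the histone list had TTTGAA and 85.5% had CCAAT (62 of 67 genes matched). In the mitotic lists used below, TTTGAA was in 30.3% of 33 promoters of checkpoint genes (28 of 29 matched). It was in 36.8% of 38 for kinetochore genes (34 of 39) and 40.0% of 45 for spindle genes (41 of 45). Chromosome structure genes had 42.9% of 35 (29 of 34). Fewer genes, 16 of 22 each, were matched for entry (35.3% of 17) and passenger genes (70.0% of 20). TTTGAA was found in 13.6% of 88 promoters of the genes at least 1.5-fold lower in DMSO members (71 of 84 matched), in 12.9% of promoters of all genes compared in DMSO (4616 of 5613 matched) and in 17.9% of all 32851 promoters. CCAAT was in 73.9% of the higher set, in 44 of the 88 promoters of the lower set and in 37.4% of all promoters, and TTTGAA and CCAAT together were in 48.7% of the higher set against 6.95% of all. TTCCCGC showed the other order, with 38.6% of the lower set, 4.35% of the higher set, 4.60% of all promoters and 9.18% of the promoters of all genes compared in DMSO. Matches of TTTGAA overlapped another motif in 3 promoters of the higher set. The sets were chosen by expression in these cells, a match is a string of letters and not a bound site, and the shares are given without a test.

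Members were 16.0% of kept DMSO cells (exact Clopper-Pearson interval 14.95 to 17.1) and 10.7% of kept RO-3066 cells (9.52 to 11.98), where intervals here and below are at 95% and cover counting error only. The order of the libraries rested on the level asked for. At 500 CPM the shares were 30.2% in DMSO and 39.7% in RO-3066, and when every cell was thinned to 5000 UMIs they were 17.9% and 16.5%. Thinning also exchanged cells: 601 of the 822 thinned DMSO members and 209 of the 412 thinned RO-3066 members were members at full depth. In the upper range, 24 DMSO cells and 2 RO-3066 cells reached 2000 CPM.

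**Figure D1:**
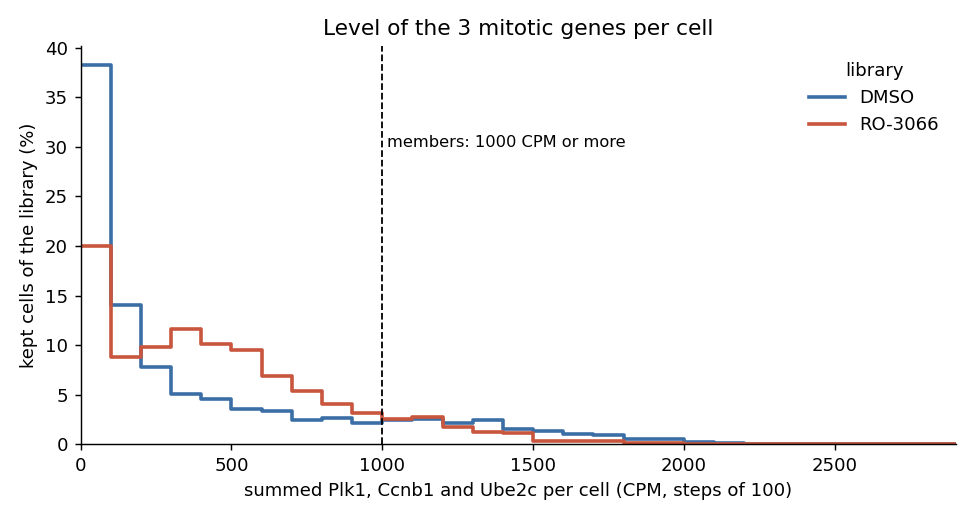
Summed level of Plk1, Ccnb1 and Ube2c per kept cell (x axis, CPM in steps of 100) against the share of kept cells of each library (y axis, %); the dashed line is the limit of 1000 CPM. RO-3066 cells are more frequent between 250 and 1000 CPM (55.6% against 27.0% of DMSO cells) and slightly so from 1000 to 1200 CPM. DMSO cells are more frequent under 200 CPM and in most steps from 1200 CPM up.

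RO-3066 cells filled the middle range of the level more than DMSO cells. The 3 genes had a median level of 179 CPM in DMSO cells and 399 CPM in RO-3066 cells, a 75th percentile of 643 and 669 CPM and a 90th percentile of 1251 and 1024 CPM. Between 250 and 1000 CPM lay 27.0% of DMSO and 55.6% of RO-3066 cells. Just inside the limit, from 1000 to 1100 CPM, there were 110 DMSO and 64 RO-3066 cells (2.40% and 2.57% of kept cells). Just outside, from 900 to 1000 CPM, there were 100 and 78 (2.18% and 3.13%). Hmmr, another gene of the phase, was at 242 CPM just inside and 247 just outside in DMSO, and at 183 and 161 CPM in RO-3066. The level ran on across the limit, so members are a range of it and not a separate population. Ube2c gave most of the rule's UMIs, with 71.1% in DMSO and 75.8% in RO-3066 members, followed by Ccnb1 (15.3% and 14.3%) and Plk1 (13.6% and 9.89%), and without Ube2c no cell reached 1000 CPM.

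UMIs per cell separated members from other cells in opposite directions. In DMSO, members had a median of 30457 UMIs (25th to 75th percentile 25930 to 35283) and other cells 21533 (17822 to 25759). In RO-3066, members had a median of 22262 UMIs (18092 to 26174) and other cells 28349 (20320 to 36872). A DMSO member had more UMIs than another DMSO cell in 81.4% of all pairs, and an RO-3066 member in 35.3%. By the median, DMSO members had 5354 genes detected and other DMSO cells 4541, RO-3066 members 4671 and other RO-3066 cells 5232. Of the members, 79.0% of 733 in DMSO and 29.2% of 267 in RO-3066 had 25000 UMIs or more.

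**Figure D2:**
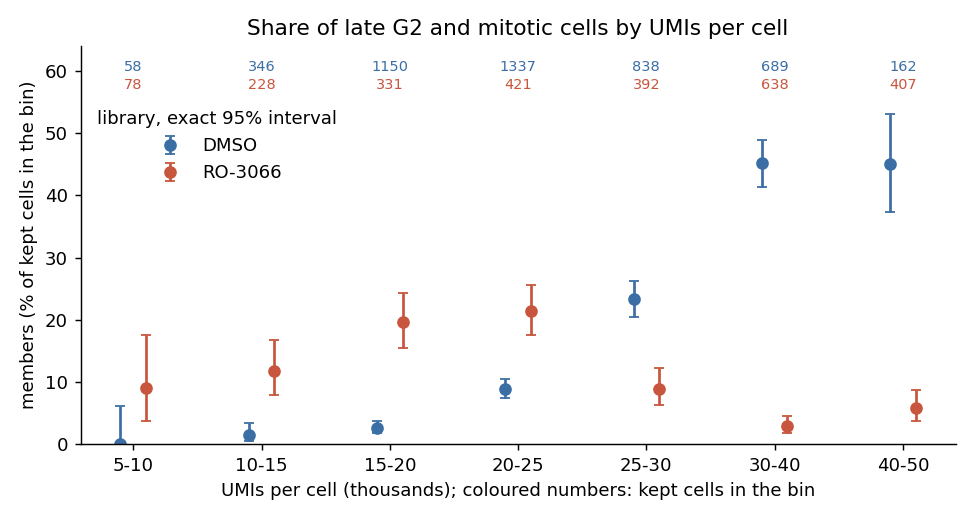
Share of members (y axis, % of kept cells of the bin, with exact intervals) by UMIs per cell (x axis, in units of 1000) in DMSO and RO-3066; coloured numbers give the kept cells per bin. The DMSO share runs from 0% to 45.1%, while the RO-3066 share is highest at 21.4% between 20000 and 25000 UMIs and 2.98% between 30000 and 40000.

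Within bins of UMIs per cell, a split added after these medians were seen, the order of the libraries changed. From 15000 to 20000 UMIs members were 2.61% of 1150 DMSO cells and 19.6% of 331 RO-3066 cells, and from 20000 to 25000 they were 8.90% of 1337 and 21.4% of 421. From 25000 to 30000 they were 23.3% of 838 and 8.93% of 392, and from 30000 to 40000 they were 45.1% of 689 and 2.98% of 638. The intervals of the libraries do not overlap in any of these 4 bins. Above the upper limit of UMIs, among cells low in Pf4, 18 of 86 DMSO barcodes (20.9%) and 60 of 537 RO-3066 barcodes (11.2%) reached the rule's level. Among barcodes at or over the Pf4 limit within the UMI limits, it was 226 of 995 (22.7%) and 20 of 97 (20.6%). Among those at or over the Pf4 limit and above the upper limit of UMIs, it was 99 of 454 (21.8%) and 35 of 624 (5.61%). Cell size, RNA per cell and capture per droplet cannot be told apart in these counts.

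The whole deposited libraries held 188022321 UMIs in 6160 DMSO barcodes and 171821236 UMIs in 3882 RO-3066 barcodes. The Pf4 limit took 1465 DMSO and 729 RO-3066 barcodes, and the upper UMI limit 540 and 1161, with some barcodes past both. The libraries shared 7 barcodes, 3 among kept cells and 0 among members. A caller of doublets marked 23 of 733 DMSO members and 152 of 3847 other DMSO cells. In RO-3066 it marked 7 of 267 members and 38 of 2228 other cells. The number to be marked was fixed in advance by the number of barcodes, at 304 of all DMSO and 121 of all RO-3066 barcodes. The summed UMIs were 22486614 in DMSO members, 86203052 in other DMSO cells, 6298370 in RO-3066 members and 63601510 in other RO-3066 cells, and gene levels below are CPM of these sums.

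Across the genes with at least 20 CPM in either population, the members differed from other cells mainly in cell division genes. In DMSO, 121 of 5613 genes (2.16%) were higher by 1.5-fold or more and 84 (1.5%) were lower by as much. In RO-3066, 135 of 5735 (2.35%) were higher and 13 (0.227%) lower. The median log2 ratio over all compared genes was 0.0097 and 0.0058. Of the 121 higher genes in DMSO, 80 were in 6 lists of mitosis and chromosome structure described below (77 without the 3 rule genes), and 40 of the 84 lower ones were in the S phase list. Of the 135 higher in RO-3066, 77 were in these 6 lists (74 without the rule genes) and 25 in the histone list. Higher in both libraries were 90 genes, 74.4% of the DMSO and 66.7% of the RO-3066 genes, and lower in both were 4 genes, 4.76% and 30.8%. The rule used these same counts, so the ratios of members over other cells are a description of the members only.

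**Figure D3:**
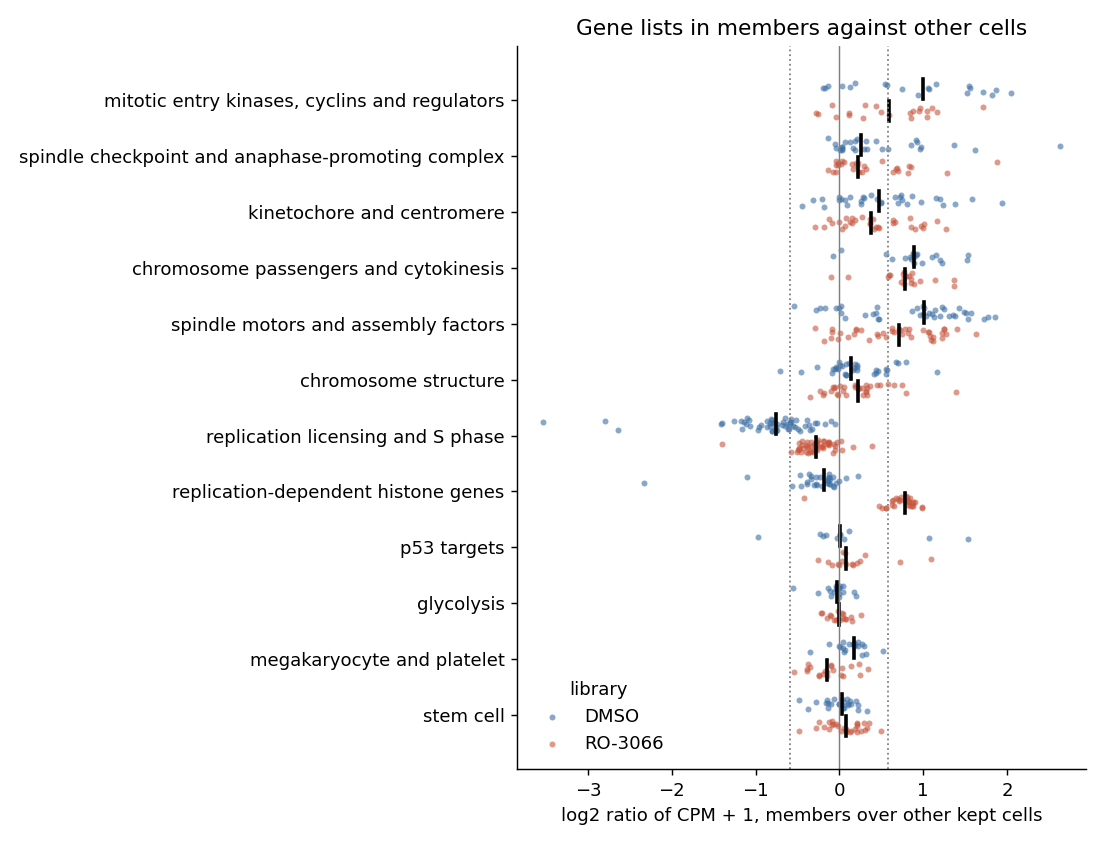
Log2 ratio of members over other cells (x axis, CPM plus a pseudocount of 1) for each compared gene (points) of 12 lists (y axis) in DMSO and RO-3066, rule genes included, with list medians (black bars) and the 1.5-fold limits (dotted). The histone genes lie around a median of -0.18 in DMSO and 0.79 in RO-3066, and the S phase genes around -0.76 and -0.28.

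The rule genes themselves stood as follows. Ube2c, chromosome 2, was at 984 CPM in DMSO members, 158 in other DMSO cells, 943 in RO-3066 members and 255 in other RO-3066 cells, Ccnb1 (cyclin B1) at 212, 59.1, 178 and 82.1 CPM in the same order, and Plk1 at 187, 50.8, 123 and 36.98 CPM. Hmmr, a spindle-associated protein that marks this phase and was not in the rule, was at 265 CPM in DMSO members, 88.7 in other DMSO cells, 205 in RO-3066 members and 65.6 in other RO-3066 cells. That is 2.99-fold (2.89 to 3.09) and 3.12-fold (2.93 to 3.33) in members, where the interval is an exact one of the ratio of counts. Per cell, Hmmr had a median of 257 CPM in DMSO members (25th to 75th percentile 181 to 345) and 39.9 CPM in the others. In RO-3066 it had 190 CPM (109 to 272) in members and 40.9 CPM in the others. Members lay above the median of the others in 98.5% of DMSO and 94.8% of RO-3066 cases, so this marker of the label was high in the members of both libraries.

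Many cyclins and kinases of mitotic entry were high in members. Leaving out the rule genes Plk1 and Ccnb1, which the choice of cells made high, 10 of 18 compared in DMSO were at least 1.5-fold higher and 0 lower, with a median log2 ratio of 0.84. In RO-3066 9 of 19 were higher and 0 lower, with a median of 0.49. Aurka, Aurora kinase A, was at 109 CPM in DMSO members, 32.4 in other DMSO cells, 74.8 in RO-3066 members and 35.7 in other RO-3066 cells. Cdc25b, a phosphatase that activates Cdk1, was 4.53-fold (4.09 to 5.02) and 2.32-fold (2.02 to 2.65), and Cdc25c 3.13-fold (2.83 to 3.45) and 2.04-fold (1.68 to 2.45). Cdk1 itself was 2.11-fold (2.05 to 2.17) in DMSO and 1.51-fold (1.44 to 1.58) in RO-3066, cyclin B2 (Ccnb2) 2.24-fold (2.16 to 2.32) and 1.94-fold (1.82 to 2.05), and cyclin A2 (Ccna2) 1.92-fold (1.85 to 1.997) and 1.82-fold (1.69 to 1.96). The kinases that hold Cdk1 inactive were not among the higher genes: Wee1 was 1.09-fold and 1.08-fold, and Pkmyt1 was at 15.5 and 19.5 CPM in DMSO, under the minimum, and 0.817-fold in RO-3066.

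The list of mitotic transcription factors and cofactors, which also takes in E2f1, was less marked. Of 11 genes compared in DMSO 1 was higher, Foxm1 at 1.71-fold (1.53 to 1.91), and 2 lower, E2f1 at 0.453-fold and Mybl2 at 0.511-fold. In RO-3066 0 of 10 were past 1.5-fold. Foxm1 was at 20.8, 12.2, 16.8 and 14.2 CPM in DMSO members, other DMSO cells, RO-3066 members and other RO-3066 cells.

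Genes of the spindle checkpoint and the anaphase-promoting complex gave 7 of 27 higher in DMSO and 8 of 28 in RO-3066 without the rule gene Ube2c, with 0 lower and medians of 0.21 and 0.21. Cdc20 was at 211 CPM in DMSO members, 68.3 in other DMSO cells, 214 in RO-3066 members and 87.3 in other RO-3066 cells. Fzr1, the activator that follows Cdc20 late in mitosis, was 2.64-fold (2.49 to 2.81) and 1.62-fold (1.45 to 1.801). Ube2s, which extends ubiquitin chains, was 1.89-fold (1.86 to 1.93) and 1.81-fold (1.75 to 1.87), and the checkpoint kinase Bub1 1.92-fold (1.799 to 2.04) and 1.62-fold (1.44 to 1.81). Core subunits hardly differed, as with Anapc1 at 1.16-fold and 0.947-fold.

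Kinetochore genes were higher for 14 of 32 in DMSO and 11 of 32 in RO-3066, with 0 lower and medians of 0.47 and 0.38. Cenpf, a large kinetochore protein of G2 and mitosis, was at 508 CPM in DMSO members, 131 in other DMSO cells, 560.0 in RO-3066 members and 231 in other RO-3066 cells. Per cell its median was 475 CPM in DMSO members and 539 CPM in RO-3066 members, with 55.7 and 209 CPM in the others. Cenpa, the centromeric histone H3 variant, was 3.01-fold (2.93 to 3.09) and 2.25-fold (2.15 to 2.35), and the motor Cenpe 2.63-fold (2.54 to 2.73) and 2.03-fold (1.903 to 2.17).

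Genes of chromosome passengers and cytokinesis gave 17 of 20 higher and 0 lower in each library, the highest share among these lists, with medians of 0.89 and 0.78. Prc1, which bundles the central spindle, was at 435 CPM in DMSO members, 150.1 in other DMSO cells, 439 in RO-3066 members and 170.0 in other RO-3066 cells. Kif23, a motor of the central spindle, was 2.38-fold (2.25 to 2.52) and 2.25-fold (2.04 to 2.48), survivin (Birc5) 1.82-fold (1.78 to 1.86) and 1.71-fold (1.64 to 1.79), and Aurora kinase B (Aurkb) 1.74-fold (1.66 to 1.82) and 1.51-fold (1.38 to 1.65).

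Spindle motors and assembly factors gave 25 of 40 higher in DMSO and 24 of 41 in RO-3066, with 0 lower and medians of 1.004 and 0.71. Aspm, a spindle pole protein, was at 108 CPM in DMSO members, 29.1 in other DMSO cells, 92.1 in RO-3066 members and 38.2 in other RO-3066 cells. Nusap1, which binds spindle microtubules, was 3.33-fold (3.23 to 3.43) and 2.66-fold (2.54 to 2.796), and the importin Kpna2 3.53-fold (3.298 to 3.78) and 2.21-fold (1.96 to 2.48). Cdkn3, a phosphatase of Cdk proteins kept in the list of G1 regulators, was 3.22-fold (3.05 to 3.396) and 2.85-fold (2.61 to 3.104).

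Most genes of chromosome structure differed little, with 4 of 34 higher and 1 lower in DMSO and 5 higher and 0 lower in RO-3066. H2afx, a histone variant whose phosphorylated form marks DNA breaks, was at 584 CPM in DMSO members, 259 in other DMSO cells, 631 in RO-3066 members and 241 in other RO-3066 cells. Top2a, the topoisomerase of chromosome condensation, was 1.74-fold (1.71 to 1.77) and 1.57-fold (1.52 to 1.62), the proliferation marker Mki67 1.62-fold (1.59 to 1.66) and 1.74-fold (1.68 to 1.802), and Hmgb2 1.49-fold (1.47 to 1.502) and 1.68-fold (1.65 to 1.71). The condensin subunit gene Ncapg2 was the lower one in DMSO, at 0.606-fold, and did not pass at 500 CPM (log2 ratio -0.48). After thinning, the RO-3066 log2 ratios of Top2a (0.43), Mki67 (0.57), Hmgb2 (0.51), Cdk1 (0.52), Aurkb (0.58), Cdc25c (0.52) and Fzr1 (0.37) were under 1.5-fold, and Bub1 was under it at 500 CPM (0.49).

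Summed over 5 of these lists, without chromosome structure and without the 3 rule genes (154 genes), members had a median of 22805 CPM in DMSO (10th to 90th percentile 19806 to 26087) and 21124 CPM in RO-3066 (17919 to 24874). The other cells had 14003 CPM (8404 to 20523) and 14450 CPM (9340 to 20831). The ranges overlap, and a member was above another cell in 94.7% of pairs in DMSO and 88.5% in RO-3066.

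**Figure D4:**
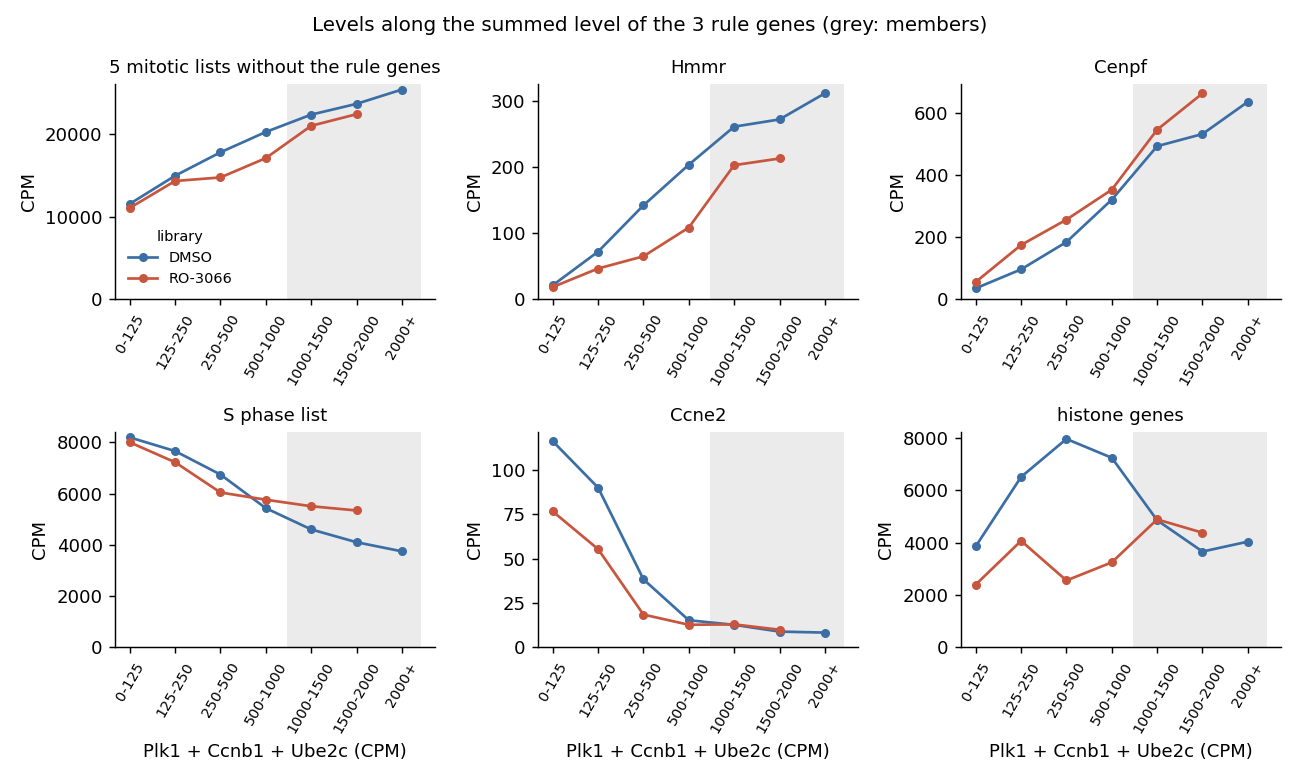
Mean level (y axis, CPM) of gene groups and single genes in bins of the summed Plk1, Ccnb1 and Ube2c level (x axis, CPM) in DMSO and RO-3066, for bins of at least 20 cells; grey marks the members. The mitotic sum is over the 5 lists; it, Hmmr and Cenpf are higher in each higher bin in both libraries, while Ccne2 is already at 15.2 CPM in DMSO and 12.7 CPM in RO-3066 in the bin from 500 to 1000 CPM.

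Genes of replication and S phase were low in DMSO members, and few passed 1.5-fold in RO-3066. Of 57 compared in DMSO 40 were at least 1.5-fold lower and 0 higher, with a median of -0.76, and of 54 in RO-3066 1 was lower and 0 higher, with a median of -0.28. Ccne2 (cyclin E2), which acts at entry into S phase, was at 11.5 CPM in DMSO members, 77.2 in other DMSO cells, 12.5 in RO-3066 members and 34.6 in other RO-3066 cells. Pcna, the sliding clamp, was at 119.6 CPM in DMSO members, 269.7 in other DMSO cells, 174 in RO-3066 members and 237 in other RO-3066 cells, and Uhrf1, which carries methylation through replication, at 33.1, 89.3, 61.8 and 85.4 CPM in the same order. Mcm6 of the replicative helicase was 0.459-fold (0.439 to 0.4798) and 0.736-fold (0.6900 to 0.785), and Ung, a uracil glycosylase, 0.0512-fold (0.0345 to 0.0733) in DMSO from 30 UMIs in members. In RO-3066 Ung was under 20 CPM in members and others, at 1.43 and 14.6 CPM. Summed over the list, the members had a median of 4335 CPM in DMSO and 5343 in RO-3066, and other cells 7218 and 6106. Above the median of the others were 0.136% of DMSO and 24.3% of RO-3066 members. The difference between the libraries was not tested.

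Pooled over all kept cells, replication-dependent histone genes separated members from other cells in RO-3066 but hardly in DMSO. Of 30 compared in RO-3066 25 were at least 1.5-fold higher and 0 lower, with a median of 0.79. Of 32 in DMSO 0 were higher and 2 lower, with a median of -0.18, which turned to 0.23 at the rule level of 500 CPM and when cells were thinned to 5000 UMIs. The linker histone gene Hist1h1b was at 1135 CPM in DMSO members, 1677 in other DMSO cells, 889 in RO-3066 members and 606 in other RO-3066 cells. Hist1h1a was 0.462-fold (0.437 to 0.488) and 1.39-fold (1.28 to 1.52), and Hist1h3c 0.969-fold (0.926 to 1.01) and 1.88-fold (1.74 to 2.02). The summed list was at 4513 CPM in DMSO members and 4834 CPM in RO-3066 members, close to each other, while other cells had 5713 and 2926 CPM. Per cell the spread was wide, from 1033 to 7593 CPM between the 25th and 75th percentile of DMSO members and from 1730 to 7104 CPM in RO-3066 members, around medians of 4873 and 4888 CPM. Other cells had medians of 4259 and 1242 CPM. Within bins of UMIs per cell the direction changed in both libraries. In DMSO members and others the summed list was at 5779 and 3097 CPM from 15000 to 20000 UMIs and 6077 and 5839 from 20000 to 25000. It was at 5241 and 8141 CPM from 25000 to 30000 and 4257 and 7818 from 30000 to 40000. In RO-3066 the same bins gave 4858 and 5861, 4937 and 3041, 3967 and 1753, and 3250 and 2332 CPM. Most of these transcripts lack a poly(A) tail and many genes are near-identical copies, so single histone genes are uncertain. Hist1h2bc was the lowest of the list in DMSO members, at 15.4 against 81.9 CPM.

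Inhibitors and cyclins of G1 did not follow 1 direction. Cdkn1b (p27) was 1.28-fold (1.203 to 1.37) and 1.36-fold (1.21 to 1.53), and Cdkn2d 1.33-fold (1.26 to 1.41) and 1.505-fold (1.36 to 1.66). With the pseudocount the RO-3066 log2 ratio of Cdkn2d was 0.5796, just under 1.5-fold, so it did not count as higher. Cyclins D2 and D3 hardly differed, with Ccnd2 at 1.03-fold and 1.03-fold and Ccnd3 at 0.9298-fold and 0.885-fold. Cdkn1a (p21), the p53-driven inhibitor, was lower in DMSO members, at 0.486-fold (0.421 to 0.5596), and at 1.13-fold (1.01 to 1.25) in RO-3066. The RO-3066 log2 ratio of 0.17 turned to -0.16 among cells of 15000 to 40000 UMIs and to -0.60 after thinning, so it has no fixed sign.

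Few markers of other cell types passed 1.5-fold between members and other cells under the Pf4 limit, and few of all compared genes did. Over all genes 2.16% were higher and 1.5% lower in DMSO members, and 2.35% and 0.227% in RO-3066 members. A count of 0 in lists as short as those below is thus near the share of all genes. Of the megakaryocyte and platelet list 20 of 43 genes were compared in DMSO and 21 in RO-3066, and 0 were past 1.5-fold in either, with medians of 0.17 and -0.15. Their summed level, Pf4 included, was 2777 and 2509 CPM in DMSO members and others and 2728 and 2891 CPM in RO-3066. Pf4 itself was 1.14-fold and 0.763-fold, within the limit set on it. With no such limit its log2 ratio in RO-3066 turned from -0.39 to 0.73, past 1.5-fold higher, and it was 0.029 at 500 CPM and 0.036 with no upper limit of UMIs. Of the stem cell list 25 of 35 genes in DMSO and 29 in RO-3066 were compared and 0 were past 1.5-fold. Mecom, a factor of stem cell maintenance, was at 103 CPM in DMSO members, 96.1 in other DMSO cells, 144 in RO-3066 members and 113 in other RO-3066 cells, and Kit, a receptor of stem and progenitor cells, at 94.8, 92.8, 123 and 150.4 CPM in the same order. Erythroid, neutrophil and monocyte, and mast cell lists had 2 to 4 genes compared each. Among these the 1 past 1.5-fold was Nkg7 in RO-3066, at 23.2 CPM in members and 40.96 in other cells, and it did not pass among cells of 15000 to 40000 UMIs (log2 ratio -0.30), at 500 CPM (-0.23) or after thinning (-0.48). The lymphoid list summed to between 28.4 and 36.8 CPM in the 4 populations. Ribosomal protein, ribosome biogenesis, heat shock, glycolysis and mitochondrially encoded genes had 0 past 1.5-fold in members against other cells in either library, where few of all compared genes passed.

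Between the treatments, 168 of 5748 genes were higher by 1.5-fold or more in RO-3066 members than in DMSO members (2.92%) and 94 were lower by as much (1.64%). Among the other cells it was 163 of 5738 higher (2.84%) and 118 lower (2.06%). The median log2 ratio over all genes was -0.031 and -0.029. RO-3066 members had fewer UMIs per cell than DMSO members, 22262 against 30457 by the median. With all cells thinned to 5000 UMIs, which also changes the members, 278 genes were higher and 192 lower. Among cells of 15000 to 40000 UMIs 173 were higher and 110 lower.

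**Figure D5:**
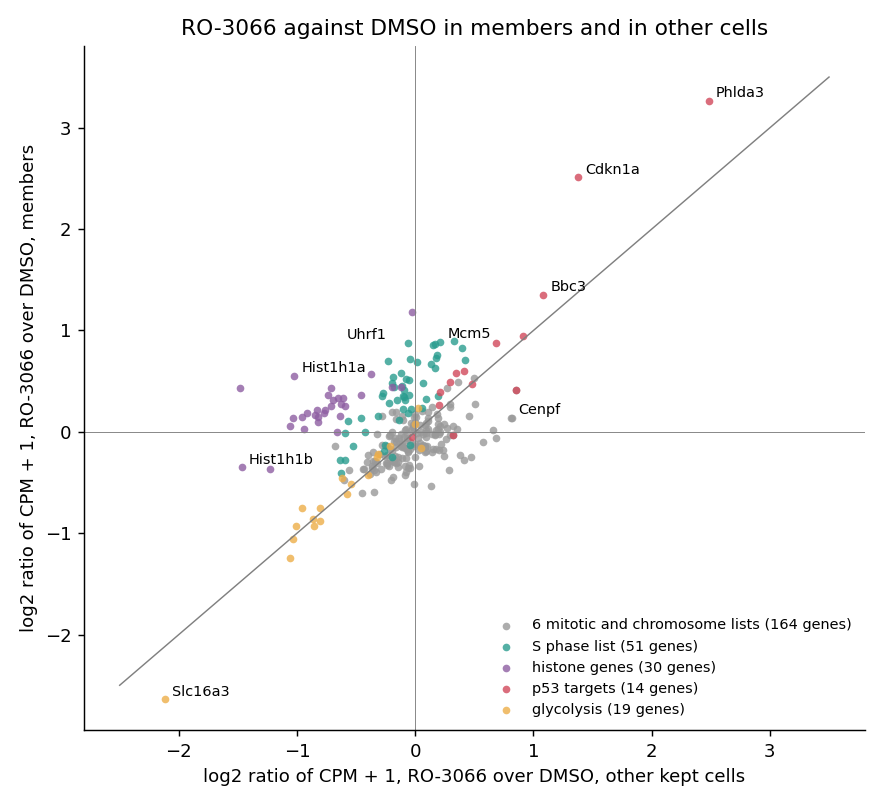
Log2 ratio of RO-3066 over DMSO (CPM plus a pseudocount of 1) in other kept cells (x axis) and in members (y axis) for genes of at least 20 CPM in both contrasts; each point is a gene, rule genes included, coloured by list, and the line marks equal ratios. Histone genes lie left of 0 for other cells and mostly a little above 0 for members, S phase genes mostly above the line, and p53 targets and glycolysis genes near it, with Cdkn1a and Phlda3 above.

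Mitotic genes themselves were mostly within 1.5-fold between the treatments in members, and most were a little lower in RO-3066. The choice of cells bounds the levels of the rule genes in both libraries, and the other mitotic genes were higher where the rule level was higher. How far these could differ between members of the libraries was thus limited in part by the rule. RO-3066 members also lay lower on the rule level, at a median of 1204 CPM against 1336 CPM in DMSO members. The part of this in the differences below was not tested. Without the rule genes, 0 of 19 entry genes were higher and 0 lower (median -0.15). Of 28 checkpoint genes 0 were higher and 0 lower (median -0.14), of 33 kinetochore genes 0 and 0 (median -0.13), of 20 passenger and cytokinesis genes 0 and 0 (median -0.16) and of 41 spindle genes 0 and 1 (median -0.086). Within these, Aurka was 0.689-fold (0.623 to 0.761), Cdc25c 0.672-fold (0.556 to 0.807), Pimreg, the lower spindle gene, 0.6605-fold (0.588 to 0.7400) and Hmmr 0.773-fold (0.728 to 0.821) in RO-3066 members. The ratio of Pimreg was within 1.5-fold with no Pf4 limit (log2 ratio -0.51), without likely doublets (-0.58), with a pseudocount of 5 (-0.56) and under median-ratio scaling (-0.56). Other genes passed 1.5-fold lower under some alternative. The lowest log2 ratios were -1.13 for Cdc25c, -0.65 for Aurka, -0.60 for Ccna2 and -0.59 for Aurkb, so the counts of 0 lower rested on the settings. Cenpf was 1.102-fold (1.06 to 1.14), Cdc20 1.02-fold (0.957 to 1.08) and Ccnb2 1.002-fold (0.941 to 1.07). The rule genes stood at 0.656-fold (0.607 to 0.709) for Plk1, 0.842-fold (0.788 to 0.899) for Ccnb1 and 0.959-fold (0.932 to 0.987) for Ube2c. In other cells Ube2c was 1.61-fold (1.57 to 1.65), Cenpf 1.76-fold (1.71 to 1.800) and Ccnb1 1.39-fold (1.34 to 1.44), while Plk1 was 0.728-fold (0.692 to 0.765) and Hmmr 0.739-fold (0.712 to 0.768).

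Some replication genes were higher in RO-3066 members than in DMSO members. Of 51 compared 14 were at least 1.5-fold higher and 0 lower among members (median 0.35), and of 57 among other cells 0 were higher and 7 lower (median -0.11), a difference between members and others that was not tested. The 14 were Mcm2, Mcm3, Mcm4, Mcm5, Mcm6, Mcm10, Cdc6, Cdt1, Rfc3, Gins2, Pold1, Uhrf1, Hells and Timeless. Mcm5 was 1.86-fold (1.71 to 2.03) in members and 1.16-fold (1.13 to 1.19) in others, Uhrf1 1.87-fold (1.65 to 2.11) and 0.956-fold (0.924 to 0.9904), and Cdt1, which loads the helicase, 1.904-fold (1.63 to 2.21) and 1.26-fold (1.197 to 1.33). Ccne2 was at 11.5 and 12.5 CPM in the members and at 0.449-fold (0.427 to 0.471) in other cells. Of 25 genes of DNA damage signalling and repair 3 were higher and 0 lower in members: Brca1 was at 14.9, 35.8, 29.4 and 39.1 CPM in the order DMSO members, other DMSO cells, RO-3066 members and other RO-3066 cells, Brca2 at 36.4, 52.3, 65.4 and 68.4 CPM and Bard1 at 13.7, 16.4, 23.8 and 21.8 CPM. These 3 act in repair by homologous recombination.

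Histone genes were lower with RO-3066 in other cells, while members gave no fixed sign. Of 30 compared in members 1 was at least 1.5-fold higher in RO-3066, Hist1h3a at 2.34-fold (1.99 to 2.75), which did not pass at 500 CPM (log2 ratio 0.46) or after thinning (0.48), and 0 were lower, with a median of 0.24. Of 32 in other cells 0 were higher and 27 lower, with a median of -0.77. The median in members was 0.040 for cells of 15000 to 40000 UMIs, -0.48 at the rule level of 500 CPM and -0.21 in thinned cells, so its sign rested on the choice of cells. The median in other cells lay between -0.996 and -0.399 under every alternative tried.

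Targets of p53 were higher with RO-3066 in members and in others. Of 15 compared in each, 7 were at least 1.5-fold higher and 0 lower, with medians of 0.58 and 0.48. Cdkn1a was at 9.78 CPM in DMSO members, 20.1 in other DMSO cells, 60.5 in RO-3066 members and 53.8 in other RO-3066 cells, which is 6.18-fold (5.22 to 7.33) in members and 2.67-fold (2.52 to 2.83) in the others. Phlda3, an inhibitor of Akt signalling, was at 1.73 CPM (39 UMIs) in DMSO members and 25.2 CPM (159 UMIs) in RO-3066 members, and Bbc3 (Puma), which promotes apoptosis, at 9.61 and 26.04 CPM. Few cells carried most UMIs of Cdkn1a and Phlda3, in members and in other cells of both libraries. The 27 RO-3066 members with most Cdkn1a held 72.7% of its 381 UMIs and the 27 with most Phlda3 74.8% of its 159, against 26.2% of 1290 for Hmmr. In other RO-3066 cells the 223 with most of each gene held 67.6% of 3419 UMIs for Cdkn1a, 69.7% of 1441 for Phlda3 and 39.0% of 4170 for Hmmr. A transcript with few UMIs gives a high share in this measure by counting alone, as with the 39 Phlda3 UMIs of DMSO members, which 32 cells held. In DMSO the 74 members with most Cdkn1a held 63.2% of 220 UMIs. The 385 other DMSO cells with most of each gene held 61.7% of 1735 UMIs for Cdkn1a and 43.6% of 7645 for Hmmr. The whole p53 list per cell had a median of 905 CPM in DMSO members and 1158 CPM in RO-3066 members, a 90th percentile of 1166 and 2118 CPM, and in other cells medians of 841 and 1029 CPM.

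Glycolysis genes were lower with RO-3066 in members as in other cells. Of 19 compared in members 10 were at least 1.5-fold lower and 0 higher (median -0.61), and of 20 in others 11 and 0 (median -0.71). The lactate exporter gene Slc16a3 was at 41.8 CPM in DMSO members, 37.02 in other DMSO cells, 5.87 in RO-3066 members and 7.77 in other RO-3066 cells, phosphoglycerate mutase (Pgam1) at 0.422-fold (0.3996 to 0.444) and 0.478-fold (0.4704 to 0.487) in members and others, and phosphofructokinase (Pfkl) at 0.476-fold (0.428 to 0.528) and 0.483-fold (0.467 to 0.501). Bnip3, a mitophagy gene, was at 84.4, 87.3, 22.7 and 27.5 CPM in the order DMSO members, other DMSO cells, RO-3066 members and other RO-3066 cells.

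Genes with the largest differences between the treatments in members mostly differed in other cells too. Apoe, a lipid carrier, was 4.45-fold (4.06 to 4.87) in members and 4.19-fold (4.03 to 4.36) in others, Lst1 3.28-fold (2.88 to 3.74) and 2.85-fold (2.72 to 2.99), Cox6b2 2.89-fold (2.54 to 3.28) and 2.44-fold (2.32 to 2.58), and Adgrl4 2.27-fold (2.05 to 2.52) and 1.805-fold (1.73 to 1.88). On the low side Fgf3, a growth factor gene, was 0.264-fold (0.219 to 0.317) and 0.487-fold (0.458 to 0.517), Cd48, a surface marker absent from the most primitive stem cells, 0.312-fold (0.2597 to 0.371) and 0.337-fold (0.317 to 0.357), and Ifitm1 0.439-fold (0.427 to 0.452) and 0.399-fold (0.395 to 0.403). With no upper limit of UMIs, Adgrl4 (log2 ratio 0.57) and Fgf3 (-0.49) were within 1.5-fold in other cells. Egr1, an early response gene, was 2.53-fold (2.01 to 3.18) in members, at 20.96 CPM in RO-3066 members (132 UMIs), and under 20 CPM in other cells of both libraries.

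Some markers of stem cells and of other cell types also passed 1.5-fold between the treatments, in members and in other cells. Of 28 stem cell genes compared in members 6 were higher in RO-3066 and 2 lower, and of 28 in other cells 5 and 2. Pdzk1ip1 was 2.74-fold (2.42 to 3.104) in members and 2.31-fold (2.21 to 2.41) in others. Of the megakaryocyte and platelet list 4 of 20 were higher and 1 lower in members and 7 of 21 higher and 0 lower in others. Nrgn, at 251, 273, 426 and 415 CPM in the order DMSO members, other DMSO cells, RO-3066 members and other RO-3066 cells, was among the higher ones in both, and Pf4, which the limit bounds, was the lower one at 0.459-fold (0.438 to 0.4800), a log2 ratio of -1.12 that went to -0.041 with no upper limit of UMIs. Of 4 erythroid genes compared in members 3 were higher and 1 lower, and in others 1 and 1. The beta-globin gene Hbb-bt was at 308, 319.8, 768 and 730.1 CPM in the same order, and the transferrin receptor gene Tfrc, the lower one, at 24.6, 26.4, 12.4 and 14.98 CPM. Their part in the other differences between the treatments was not tested.

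With 1 library per treatment, a difference between the treatments and a difference between the libraries cannot be told apart. Differences between members and other cells within a library do not share that limit, but the rule chose the cells on the genes described.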

How the data were processed

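Single-cell RNA of cultured mouse hematopoietic stem cells was measured in 2 libraries, DMSO and RO-3066, made with the 10x Genomics 3' workflow per the labels. The authors deposited UMI counts per gene and barcode, with no normalization. The genome mm10 and Cell Ranger 5.0.1 are named in the submitters' processing notes, while the file headers name Cell Ranger 7.1.0; whether intron reads were counted is not given in the sources used here. Of 32285 gene identifiers 32235 were found in GENCODE vM21 (mm10), the source of chromosomes.

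UMI counts were summed over members and over other kept cells of each library and scaled to CPM. Log2 ratios used a pseudocount of 1 and genes of at least 20 CPM in either population, and a gene counted as higher or lower at 1.5-fold on this ratio. Folds printed with intervals are ratios of CPM without the pseudocount. Counts of the entry and checkpoint lists leave out the rule genes, a choice made after the data were seen. Intervals are exact Clopper-Pearson intervals for shares and exact conditional Poisson intervals for folds, at 95%; reads and cells of 1 library are not replicates. No doublets were removed, and likely doublets were left out as an alternative. The ratio code was tested on simulated data. The 25 gene lists, 22 written out and 3 taken by symbol patterns, the members and the motif TTTGAA were chosen with earlier results of these data known.

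Genes named are the rule genes and Hmmr, the 10 highest and 10 lowest ratios of at least 50 CPM per contrast without unnamed models, mitochondrial and ribosomal protein genes, the 3 largest ratios per list, and a set of cell cycle genes; 9 further S phase genes were named after their values were seen. Python 3.11.15, numpy 2.4.6, scipy 1.17.1, pandas 2.3.3 and scikit-learn 1.9.0 were used. Alternatives changed the rule level, its genes, UMI, Pf4 and mitochondrial limits, doublets, thinning, weighting, scaling, pseudocount, minimum CPM and fold.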

Additional observations from a re-analysis of the deposited data

Results flagged for a closer look

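The items below had members above other cells in one library and below them in the other, and no difference was tested, since each treatment was 1 library. Each value is the log2 ratio of members over other cells in RO-3066 minus that in DMSO. UMIs per cell gave -0.85, from ratios of medians of 1.41 in DMSO and 0.785 in RO-3066, and genes per cell gave -0.40, from 1.18 and 0.893. The median of the histone list gave 0.97, from -0.18 and 0.79.

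Among histone genes, Hist1h1a gave 1.58, Hist1h3a 1.21, Hist1h1b 1.12, Hist1h2bb 1.11 and Hist1h3d 0.94, each below other cells in DMSO and above them in RO-3066. In DMSO 3 of them turned to above other cells after thinning to 5000 UMIs, with log2 ratios of 0.66 for Hist1h2bb, 0.10 for Hist1h3a and 0.19 for Hist1h3d. Cdkn1a, the p53-driven inhibitor of Cdk proteins, gave 1.14, from -0.97 and 0.17. Its RO-3066 ratio was -0.60 after thinning and -0.16 among cells of 15000 to 40000 UMIs, below other cells as in DMSO. In the other direction, Nkg7 gave -0.92, Slc18a2 -0.74, Itga2b (an integrin of megakaryocytes and stem cells) -0.66, Runx3 (a transcription factor) -0.64 and Bin1 -0.63. After thinning the RO-3066 ratios of Itga2b (0.016) and Runx3 (0.029) turned above 0 and the DMSO ratio of Bin1 (-0.0025) below it.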

How the results depend on the processing

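No paired analysis was possible because each treatment was 1 library, and for the same reason no replicate could be left out. The share of members in DMSO was 30.2% at a rule level of 500 CPM, 0.524% at 2000 CPM, 17.2% with no Pf4 limit, 11.8% without Plk1 in the rule, 11.4% without Ccnb1, 0% without Ube2c and 17.9% after thinning to 5000 UMIs. In RO-3066 it was 39.7% at 500 CPM, 0.0802% at 2000 CPM, 7.94% without Plk1, 6.33% without Ccnb1, 0% without Ube2c and 16.5% after thinning. Genes higher in DMSO members numbered 192 with no minimum of CPM and 62 at a fold of 2. Genes lower there numbered 139 at a minimum of 5 CPM, 50 at 50 CPM, 228 with none and 21 at a fold of 2. Genes higher in RO-3066 members numbered 299 with no minimum and 35 at a fold of 2. Genes lower there numbered 7 at the 500 CPM rule, 27 with no upper UMI limit, 21 with no Pf4 limit, 39 after thinning, 6 with a pseudocount of 5, 107 at 5 CPM, 3 at 50 CPM, 352 with no minimum and 1 at a fold of 2.

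Between the treatments, genes higher in RO-3066 members numbered 278 after thinning, 481 at 5 CPM, 59 at 50 CPM, 911 with no minimum and 28 at a fold of 2, and lower ones 192, 198, 43, 368 and 26 in the same order. In other cells higher genes numbered 382 at 5 CPM, 62 at 50 CPM, 613 with no minimum and 20 at a fold of 2, and lower ones 178, 77, 228 and 27. Over the named genes past 1.5-fold, 1456 values moved by less than their counting interval under an alternative and 654 by more, and none of them turned direction. Ratios at 2000 CPM were not taken, since 2 RO-3066 members remained; a minimum of 50 members was set after that was seen. Low depth limits genes under 20 CPM, whose calls depended most on the minimum.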
